A study of Mus musculus with 4 samples.

Results

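Immediate early genes are the first genes a cell transcribes after a stimulus, and 10 of them were followed here in astrocytes isolated from the mouse cerebral cortex. The 10 genes, Fos, Fosb, Fosl2, Jun, Junb, Jund, Egr1, Ier2, Atf3 and Nr4a1, were chosen by name, and all 10 were found among 23475 genes in the deposited count tables. The study sequenced mRNA of astrocytes from pups at postnatal day 5 in 4 libraries. There were 2 libraries of the KO group, which the design text calls PD1cKO-Cx3, a conditional deletion of PD-1, and 2 of the WT group, PD1fl/fl, which carries the floxed PD-1 gene. What Cx3 stands for, whether animals were pooled and how the astrocytes were isolated are not stated in the labels or the design text. The labels do not state that each library is a different animal. The p-values below therefore rest on how far these libraries lie apart, and for the WT libraries it is not known whether that spread includes differences between animals.

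The products of these genes are mostly transcription factors whose genes are silent or low at rest and switch on without new protein synthesis, through phosphorylated SRF, ELK and CREB proteins bound at their promoters. FOS and JUN proteins pair through leucine zippers into the AP-1 factor, and the makeup of the pair decides which targets it drives. In brain tissue the same genes are known to respond within minutes to neuronal firing, growth factors, injury and the enzymes and warmth used to free cells from tissue. All 4 libraries came from isolated cells and no library of intact tissue was analysed here, so induction during isolation and expression in the living cortex cannot be told apart, and values are therefore given for every library.

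Total counts per library ran from 14224519 to 16961160. PD-1 itself (Pdcd1) had 20 counts in KO replicate 2 and 0 in the other 3 libraries, so it could not check the labels. KO replicate 2 stood apart in its sex-linked transcripts, in which Ddx3y (on the Y chromosome) had 2472 counts and Xist 0, while KO replicate 1 and both WT libraries had 0 for Ddx3y and between 6732 and 8564 for Xist. The KO libraries were thus not made from the same animals, and in KO the sex of the animals and the replicate cannot be told apart. Ddx3y counts were found in a KO library only, so sex was also unbalanced between KO and WT. The fold changes and p-values below take no account of sex. The astrocyte markers Slc1a3, Apoe and Aqp4, the most abundant of the 13 listed, were abundant in all 4 libraries. All 13 had counts in each library. They summed to between 10018 and 11775 CPM (counts divided by the TMM-scaled library size) in KO libraries and between 10876 and 11268 CPM in WT libraries. The lowest of them, S100b and Gjb6, lay between 8.22 and 18.1 CPM. Markers of other cells were abundant too. The oligodendrocyte lineage marker Olig1 lay between 1067 and 1496 CPM, and the neuron marker Map2 between 877 and 1066 CPM.

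Per length of transcript the members fell into an abundant and a scarce set. Averaged over the 4 libraries and divided by exon length, Fos stood at 153 CPM per kb, Jun at 139, Ier2 at 121 and Egr1 at 72.7 CPM per kb, above 98.9%, 98.8%, 98.6% and 97.1% of tested genes. Fos, Jun and Ier2 could not be ranked, since their order changed between libraries. Egr1 lay below Ier2 in every library, although their ranges over the libraries overlapped. Junb followed at 19.1 CPM per kb, below Egr1 in every library. Nr4a1 (2.62 CPM per kb), Atf3 (1.90) and Fosb (1.24) again changed order between libraries. Fosl2, at 0.34 CPM per kb, lay below Fosb in every library, with a range that reached that of Fosb. Jund at 0.046 CPM per kb was close to undetected.

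**Figure D1:**
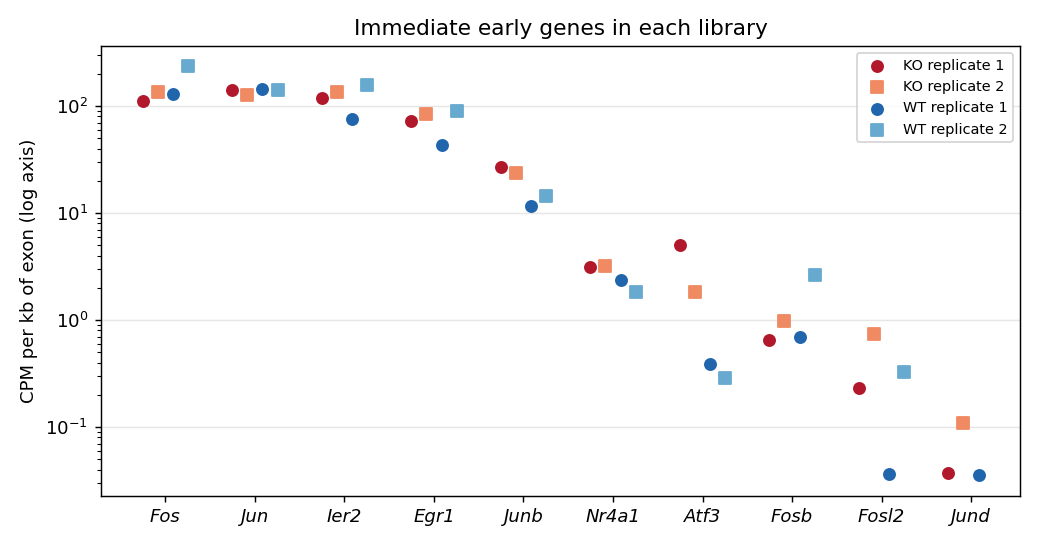
Level of the 10 immediate early genes in each library, in CPM per kb of exon on a log axis, ordered by their mean, with KO libraries (reds) left of WT libraries (blues). Fos, Jun, Ier2 and Egr1 lie between 43.2 and 235 CPM per kb in every library, Atf3 and Junb are higher in both KO libraries, and Jund, with 0 counts in WT replicate 2, has 3 points.

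In the comparison of KO with WT, 0 of the 9 tested members passed the threshold (edgeR quasi-likelihood test over 17696 genes, Benjamini-Hochberg adjusted p under 0.05), where 3 genes, or 0.017% of all tested, did. The members did not move one way. The log2 fold change of KO over WT was above 0 for 6 members and below 0 for 3, with a median of 0.24 beside -0.00027 over all tested genes. At an unadjusted p under 0.05 there were 2 members, Atf3 and Junb, both higher in KO. Of all tested genes 8.29% had such a p, 5.88% higher in KO and 2.41% lower. DESeq2 called these same 2 higher (adjusted p = 0.028 for Atf3 and 0.048 for Junb), where it called 1.78% of all genes higher, and limma-voom called 0 members. In 3 of the 9, Junb, Atf3 and Nr4a1, both KO libraries lay above both WT libraries, which held for 21.2% of all tested genes. In Jun alone both KO libraries lay below both WT libraries, which held for 18.4%.

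**Figure D2:**
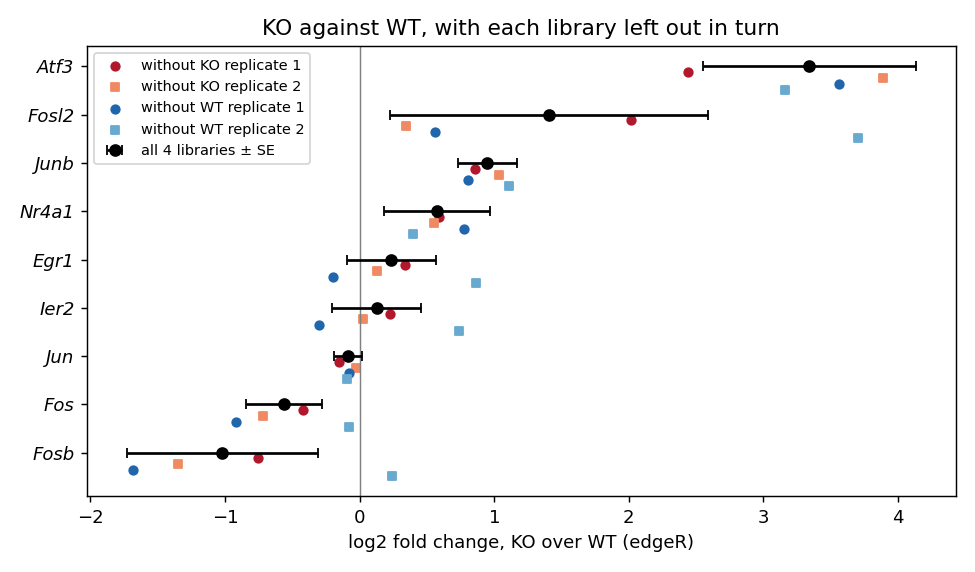
Log2 fold change of KO over WT for the 9 tested members (black, all 4 libraries, with its SE) and with each library left out in turn (coloured points). Junb stays between 0.81 and 1.11 whichever library is left out, while Egr1, Ier2 and Fosb cross 0 when a WT library is left out.

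Junb, whose protein competes with JUN for FOS partners and activates AP-1 sites less strongly, was about 1.93 times as abundant in the KO libraries (ENSMUSG00000052837; chromosome 8, 84974484 to 84978718, minus strand, GRCm38). It had 61.5 CPM in KO replicate 1 and 54.0 CPM in KO replicate 2, against 26.8 and 33.0 CPM in WT replicates 1 and 2. The groups did not overlap, and the gap between them was wider than the gap between replicates of either group. With a log2 fold change of 0.95 ± 0.22 (SE) and an adjusted p of 0.35 in the edgeR fit, Junb did not pass. Of the exon bases of Junb 7.52% are also exon of the neighbouring peroxiredoxin gene Prdx2 on the opposite strand. The sources do not state whether strand was used in counting, so reads from that stretch cannot be assigned for certain. Prdx2 had 9876 and 10508 counts in the KO libraries, against 11987 and 11205 in the WT libraries, a difference in the other direction.

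Atf3, a stress-induced factor of the ATF/CREB family that pairs with JUN proteins, had the highest fold change of the members (ENSMUSG00000026628; chromosome 1, 191170296 to 191218039, minus strand). Its counts were low, at 175 and 65 in KO replicates 1 and 2, against 14 and 9 in WT replicates 1 and 2. These are 10.9 and 3.99 CPM in KO libraries, against 0.83 and 0.63 CPM in WT libraries. Scaled to the library total, the exact 95% binomial interval of the lower KO library, 3.06 to 5.05 CPM, lay above that of the higher WT library, 0.45 to 1.38 CPM, counting error only. The KO replicates themselves differed 2.74-fold. At about 10.1-fold, its log2 fold change was 3.34 ± 0.79 (SE; edgeR adjusted p = 0.35), and 2.44 without KO replicate 1.

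Nr4a1, an orphan nuclear receptor of the early response (ENSMUSG00000023034; chromosome 15, 101266846 to 101274792, plus strand), was measured at 10.2 and 10.5 CPM in KO libraries, against 7.88 and 6.05 CPM in WT libraries. The groups did not overlap, but the difference was small (log2 fold change 0.57 ± 0.39 SE, edgeR adjusted p = 0.81).

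The libraries in which Junb and Atf3 were higher also had higher summed levels of microglia, vascular and oligodendrocyte lineage markers, and lower ones of neuron markers. All 15 microglia markers were above 0 in log2 fold change (median 1.88, all 15 detected in every library, and 1 of them, P2ry12, past the edgeR threshold), and they summed to 4720 and 3997 CPM in KO libraries, against 875 and 1309 CPM in WT libraries. The 14 endothelial markers were all above 0 too (median 1.92, 0 passed, Abcb1a with 0 counts in a library) and summed to 878 and 451 CPM in KO libraries, against 299 and 112 CPM in WT libraries. Of the pericyte, smooth muscle and fibroblast markers 9 of 10 tested were above 0 (median 0.98, 0 passed, Tagln with 0 counts in a library), summing to 890 and 454 CPM in KO libraries, against 371 and 399 CPM in WT libraries. All 10 oligodendrocyte lineage markers were above 0 as well (median 0.65, 0 passed). Both KO libraries lay above both WT libraries in 7 of them, beside 21.2% of all tested genes. That held for all 15 microglia markers, all 14 endothelial markers and 5 of the 10 tested pericyte, smooth muscle and fibroblast markers. Among the neuron markers it held for 2, while in 5 both KO libraries lay below, beside 18.4% of all tested genes. Of the 12 neuron markers 8 were below 0 (median -0.18, 0 passed). The part of these cells in the levels of Junb and Atf3 was not tested. In bulk libraries more cells of a type and more RNA per cell cannot be told apart. Astrocyte markers did not shift as a list (median -0.04, 5 of 13 above 0, 0 passed).

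Fos and Fosb, which encode closely related AP-1 subunits, ranked the 4 libraries in the same order, with WT replicate 2 on top. Fos (ENSMUSG00000021250; chromosome 12, 85473890 to 85477273, plus strand) had 261 CPM in KO replicate 1 and 321 CPM in KO replicate 2, against 308 and 553 CPM in WT replicates 1 and 2 (291 ± 42.5 CPM over the KO libraries and 430 ± 173 CPM over the WT libraries, SD, n = 2 each). WT replicate 2 stood above the other 3 libraries, and WT replicate 1 lay between the KO libraries. Fos had a log2 fold change of -0.56 ± 0.28 (SE; edgeR adjusted p = 0.69), and -0.08 without WT replicate 2. Fosb (ENSMUSG00000003545; chromosome 7, 19302696 to 19310051, minus strand), known in neurons for a splice form that accumulates on repeated stimulation, had 4.06 and 6.13 CPM in KO replicates 1 and 2, against 4.33 and 16.4 CPM in WT replicates 1 and 2. Again only WT replicate 2 was set apart, 3.79 times WT replicate 1. The log2 fold change was -1.02 ± 0.71 (SE; edgeR adjusted p = 0.81) and turned to 0.24 without WT replicate 2. Their common order, from KO replicate 1 at the low end through WT replicate 1 and KO replicate 2 to WT replicate 2, was that of 5.02% of tested genes.

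Egr1 and Ier2 formed another pair with a common order, from WT replicate 1 at the low end through KO replicates 1 and 2 to WT replicate 2, an order that 4.33% of tested genes had. Egr1, a zinc finger factor that many growth factor and activity signals induce through SRF (ENSMUSG00000038418; chromosome 18, 34859823 to 34864984, plus strand), had 328 and 377 CPM in KO replicates 1 and 2, against 194 and 405 CPM in WT replicates 1 and 2. Ier2, a small nuclear protein of the early response (ENSMUSG00000053560; chromosome 8, 84661331 to 84662852, minus strand), had 180 and 206 CPM in the KO replicates, against 116 and 238 CPM in WT replicates 1 and 2. In both genes the KO libraries lay between the WT libraries. Egr1 had a log2 fold change of 0.24 ± 0.33 (SE; edgeR adjusted p = 0.94) and moved to -0.20 when WT replicate 1 was left out, and to 0.87 when WT replicate 2 was. The log2 fold change of Ier2, 0.13 ± 0.33 (SE; edgeR adjusted p = 0.97), moved to -0.30 and 0.74 in the same way.

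**Figure D3:**
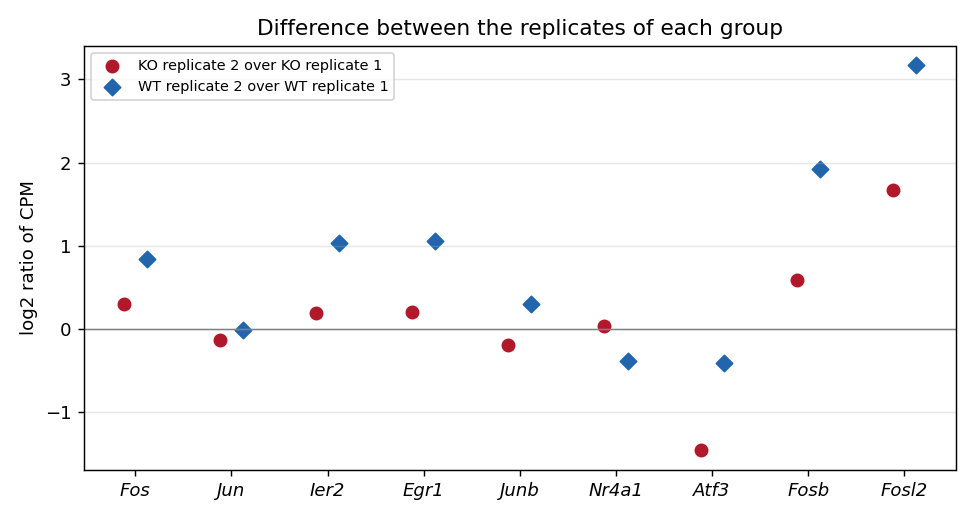
Log2 ratio of CPM between the replicates of each group, KO replicate 2 over KO replicate 1 (red circles) and WT replicate 2 over WT replicate 1 (blue diamonds), for the 9 tested members ordered by mean level. Fos, Ier2, Egr1 and Fosb are 1.80 to 3.79 times higher in WT replicate 2 than in WT replicate 1, while Jun differs little between replicates of either group.

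WT replicate 2 was the library with the highest level in 4 of the 9 tested members, Fos, Fosb, Egr1 and Ier2, beside 28.0% of all tested genes. Replicates of WT differed more than replicates of KO in 7 of the 9 members, beside 58.7% of tested genes with a mean of at least 1 CPM. The median gap between replicates over the members was 1.15-fold in KO and 1.79-fold in WT, where tested genes with a mean of at least 1 CPM had median gaps of 1.21-fold in KO and 1.28-fold in WT, and those of at least 100 CPM gaps of 1.10-fold in KO and 1.13-fold in WT. Neuron markers were also at their highest in WT replicate 2, for 9 of 12 markers, and summed to 2492 and 2614 CPM in KO replicates 1 and 2, against 2781 and 3171 CPM in WT replicates 1 and 2. All 12 had counts in every library. Their part in the high Fos, Fosb, Egr1 and Ier2 of that library was not tested. Oligodendrocyte lineage markers, all 10 with counts in every library, summed to 2851 and 3030 CPM in KO libraries, against 2615 and 2029 CPM in WT replicates 1 and 2, so that WT replicate 2 was the lowest.

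Promoter windows are shown for Junb and Atf3, higher in both KO libraries, and for Fos and Fosb, highest in WT replicate 2. The 4 windows were picked after the values of these genes were seen. Each runs from 250 bases before to 50 bases after the RefSeq start of the gene (GRCm38.p6), 5′ to 3′ on the gene's strand. Capitals mark TGACG on either strand, the core of the cAMP response element that CREB and ATF proteins bind. The Junb window is chr8:84978699-84978998 (minus strand), the Atf3 window chr1:191183284-191183583 (minus strand), the Fos window chr12:85473640-85473939 (plus strand) and the Fosb window chr7:19309996-19310295 (minus strand). The RefSeq start of Atf3 lies inside the span of the counted gene. That span begins farther upstream on this strand, at 191218039, so the Atf3 positions are not counted from its start. The RefSeq starts of Junb and Fosb also differ from those of the counted genes, at 84978718 and 19310051, though by far less. For Fos the starts are the same.
Junb: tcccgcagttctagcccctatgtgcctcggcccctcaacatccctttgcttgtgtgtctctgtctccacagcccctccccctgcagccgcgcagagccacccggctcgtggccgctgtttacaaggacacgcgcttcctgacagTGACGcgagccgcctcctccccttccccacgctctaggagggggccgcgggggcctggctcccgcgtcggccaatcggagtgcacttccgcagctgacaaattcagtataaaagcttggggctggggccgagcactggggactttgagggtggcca
Atf3: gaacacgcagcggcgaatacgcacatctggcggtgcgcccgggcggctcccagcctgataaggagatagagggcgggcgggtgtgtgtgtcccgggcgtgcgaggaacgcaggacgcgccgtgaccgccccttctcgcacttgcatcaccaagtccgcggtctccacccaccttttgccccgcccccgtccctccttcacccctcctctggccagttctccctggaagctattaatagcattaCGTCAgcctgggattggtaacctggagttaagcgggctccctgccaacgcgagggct
Fos: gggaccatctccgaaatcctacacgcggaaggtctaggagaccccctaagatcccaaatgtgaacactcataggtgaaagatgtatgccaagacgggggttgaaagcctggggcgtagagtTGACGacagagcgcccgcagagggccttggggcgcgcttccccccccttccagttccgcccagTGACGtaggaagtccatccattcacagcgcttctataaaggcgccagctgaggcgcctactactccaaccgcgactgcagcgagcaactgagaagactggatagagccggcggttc
Fosb: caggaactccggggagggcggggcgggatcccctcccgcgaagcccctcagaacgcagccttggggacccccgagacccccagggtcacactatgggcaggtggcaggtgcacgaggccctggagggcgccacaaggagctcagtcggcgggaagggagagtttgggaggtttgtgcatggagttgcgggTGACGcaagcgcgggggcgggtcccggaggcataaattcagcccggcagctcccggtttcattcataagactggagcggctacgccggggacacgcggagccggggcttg

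The core TGACG occurred in the windows of 5 of 8 members, Fos, Fosb, Junb, Atf3 and Nr4a1, and in 20.8% of all 32851 windows of this length. Fos held it at 2 places, starting 129 and 66 bases before the start, Fosb at -60, Junb at -106 and Atf3 at -7, while Nr4a1 held 4. The 5 include both members higher in KO and members highest in WT replicate 2. Jun had instead the related TGACNTCA at -45, found in 8.83% of windows (a TGACG can be part of it), while the AP-1 site TGANTCA (7.81% of windows) and the SRF-binding CArG box (1.63%), each searched on both strands, occurred in 0 of the 8. Egr1 and Ier2 were not searched, so the 0 does not cover Egr1, described above as induced through SRF. A match is a string of letters only, and known sites of these genes can lie outside the windows.

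Jun, the main partner of FOS and the most even of the members, did not follow the swings of Fos (ENSMUSG00000052684; chromosome 4, 95049034 to 95052222, minus strand). It had 447 and 409 CPM in KO replicates 1 and 2, against 457 and 453 CPM in WT replicates 1 and 2. The KO libraries lay below the WT libraries, but by little, with a log2 fold change of -0.09 ± 0.11 (SE; edgeR adjusted p = 0.92). The antisense gene Junos, which shares 7.28% of the exon bases of Jun, had 11 and 9 counts in KO libraries, against 18 and 0 in WT libraries.

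Fosl2, which encodes FRA2, a FOS relative without the strong activation domain of FOS, varied with replicate in both groups (ENSMUSG00000029135; chromosome 5, 32135801 to 32157842, plus strand). It had 36 and 117 counts in KO replicates 1 and 2, against 6 and 46 counts in WT replicates 1 and 2. In CPM these are 2.25 and 7.17 in KO libraries, against 0.36 and 3.20 in WT libraries. Replicate 2 was the higher library of each group, by 3.19-fold in KO and 8.99-fold in WT, and the groups overlapped. The log2 fold change of 1.41 ± 1.18 (SE; edgeR adjusted p = 0.86) ran from 0.34 without KO replicate 2 to 3.70 without WT replicate 2.

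Jund, known in most tissues as the steadily expressed JUN gene, had almost no counts and was not tested (ENSMUSG00000071076; chromosome 8, 70698949 to 70700616, plus strand). It had 1 and 3 counts in KO replicates 1 and 2, against 1 and 0 in WT replicates 1 and 2, and the 0 allows up to 0.21 CPM. Of its 1668 annotated exon bases 52.6% are also exon of Gm11175 on the opposite strand, and Gm11175 has no row in the tables. RefSeq begins the gene 1210 bases earlier than the files do, at 70697739. The sources do not state how counting treated shared bases, and the part of the overlap and of the shorter gene model in the near absence of Jund counts was not tested.

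The mix of AP-1 transcripts can be compared within a library, where scaling between libraries plays no part. Per kb of exon the FOS family (Fos, Fosb and Fosl2) amounted to 0.67 and 0.91 of the JUN family (Jun, Junb and Jund) in KO replicates 1 and 2, against 0.85 and 1.52 in WT replicates 1 and 2. With Jund as counted, the FOS family exceeded the JUN family in WT replicate 2 alone. The group means, 0.79 ± 0.17 in KO and 1.18 ± 0.48 in WT (SD, n = 2 each), differed by less than the WT replicates did (two-sided exact permutation test, p = 0.67). Junb amounted to 0.19 and 0.18 of Jun in KO libraries, against 0.081 and 0.10 in WT libraries, 2.05 times as much on average. The groups did not overlap, and the exact permutation p of 0.33 is the smallest that 2 libraries against 2 can give. The share of Atf3 in the summed FOS, JUN and ATF3 transcripts was 1.79% and 0.63% in KO libraries, against 0.13% and 0.074% in WT libraries. Jund adds almost nothing to the JUN values, given its 0 to 3 counts. Any Jund reads that were not counted would make the JUN family higher and the FOS to JUN ratio lower than given here.

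**Figure D4:**
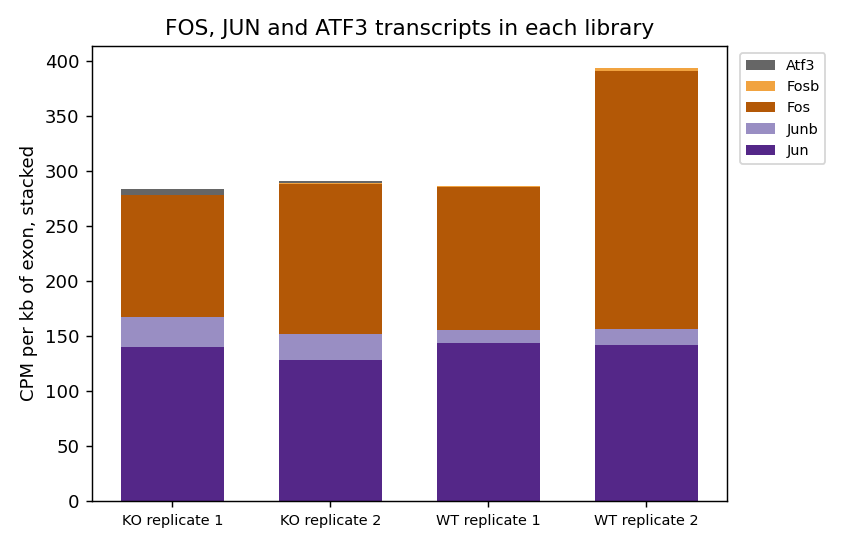
Stacked levels of Jun, Junb, Fos, Fosb and Atf3 in each library, in CPM per kb of exon, with KO libraries left of WT libraries (Fosl2 and Jund, each at most 0.74 CPM per kb, are not drawn). The Jun layer lies between 128 and 143 CPM per kb in all 4 libraries, and the Fos layer is highest in WT replicate 2, at 235 CPM per kb.

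Other early response genes did not change as lists, and none of their members passed over all genes. Of the transcription factor genes 20 of 21 in the files were tested, 10 above 0 and 10 below (median -0.0020). The most abundant were Atf4, the factor of the integrated stress response, Klf6, a Krüppel-like factor, and Myc, the growth regulator. Their log2 fold changes were -0.13, 0.06 and -0.065. Of the early genes that encode no transcription factor 34 of 36 were tested, 17 above 0 and 17 below (median -0.0011). Btg2, an antiproliferative gene, had a log2 fold change of -0.25, the stress gene Gadd45g 0.04 and the small GTPase gene Rnd3 -0.21. The 3 genes of these lists with an unadjusted p under 0.05 are named after their values were seen. Srf, which encodes the serum response factor that binds many early promoters, had 10.7 and 10.4 CPM in KO libraries, against 3.38 and 4.66 CPM in WT libraries (log2 fold change 1.39 ± 0.45 SE, edgeR adjusted p = 0.47). Zfp36, which encodes tristetraprolin, a protein that speeds decay of AU-rich mRNAs, had 116 and 65.6 CPM in KO libraries, against 25.4 and 46.6 CPM in WT libraries (log2 fold change 1.34 ± 0.40 SE, edgeR adjusted p = 0.46). Dusp5, a dual-specificity phosphatase gene, had 28 and 14 counts in KO libraries, against 0 in both WT libraries, and its adjusted p in edgeR was 0.46. In all 3 both KO libraries lay above both WT libraries, as in 21.2% of all tested genes, and picking genes by p favours such a gap. The microglia and endothelial markers were higher in the KO libraries too, and their part in these values was not tested.

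Heat shock genes, which are also known to respond to cell isolation, did not pass the test, but more of them lay above 0 than below. Of 14 tested, 9 were above 0 and 5 below, with a median of 0.16. In 8 of the 14 both KO libraries lay above both WT libraries, and in 2 both lay below, beside 21.2% and 18.4% of all tested genes. The chaperone genes Hsp90aa1, Hspa8 and Hsp90ab1 had log2 fold changes of -0.12, 0.19 and 0.21. WT replicate 2, the highest library in Fos and Egr1, was the highest in 1 of the 14, beside 28.0% of all tested genes. The part of cell isolation in the values of these genes was not tested. The strongly inducible Hspa1a had 1.25 and 0.98 CPM in KO libraries, against 0.059 and 0 CPM in WT libraries, and Hspa1b had at most 0.37 CPM in any library. These 2 genes, picked after their values were seen, are near-identical copies between which the counting could split or lose reads, and their values are uncertain.

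The partners and the upstream genes showed no list-wide shift either. Of 7 tested bZIP genes, 3 were above 0 and 4 below (median -0.03, 0 passed), with Atf2 at -0.17, Atf7 at 0.24 and the small MAF gene Mafg at -0.30. Maf, the gene of the list with an unadjusted p under 0.05, chosen after its values were seen, had 37.6 and 27.3 CPM in KO libraries, against 9.72 and 14.8 CPM in WT libraries (log2 fold change 1.40 ± 0.34 SE, edgeR adjusted p = 0.35). Of the 20 kinases and factors that switch early genes on, 9 were above 0 and 11 below (median -0.14, 0 passed). Map2k2, which encodes the kinase MEK2, had a log2 fold change of -0.16, and the JNK gene Mapk8 had one of -0.15. Rps6ka1, a ribosomal S6 kinase gene, and Mapk10, a neuronal JNK gene, both chosen after their values were seen, had log2 fold changes of 1.33 ± 0.29 and -0.68 ± 0.16 (SE; edgeR adjusted p = 0.31 and 0.35).

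**Figure D5:**
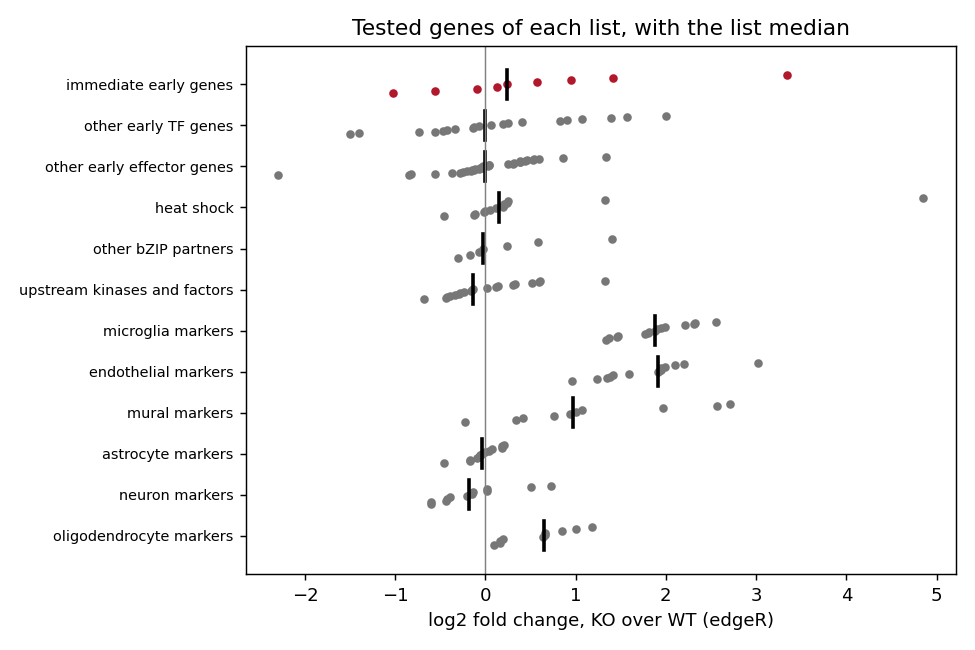
Log2 fold change of KO over WT for each tested gene of the immediate early genes (red, top), the related lists and the cell type markers (grey), with the list median as a black bar. The immediate early genes spread on both sides of 0 around a median of 0.24, while the microglia and endothelial markers lie at medians of 1.88 and 1.92 (Dusp5, with 0 counts in both WT libraries, is not drawn).

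The members were not the genes most like Fos over the libraries. The 5 genes with the most similar profile over the 4 libraries, among those with a mean of at least 10 CPM, were Nbl1, Thrb, Ranbp17, Fam57b and Sh3gl3, with a root mean square difference from Fos of 0.023 to 0.051 in centred log2 CPM. Thrb, the thyroid hormone receptor beta gene, had 7.62 and 9.38 CPM in KO libraries, against 8.95 and 15.9 CPM in WT libraries, with WT replicate 2 on top as in Fos. Fosb, at 0.37, was farther from Fos than 2877 of 10498 genes, and Ier2, Jun and Egr1, at 0.37, 0.40 and 0.43, farther than 2935, 3763 and 4638. Nr4a1, Junb, Fosl2 and Atf3, at 0.69 to 1.68, were each farther than at least 9163. Over 4 libraries such a likeness is a description of these libraries only.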

How the data were processed

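mRNA of isolated astrocytes was sequenced in 4 libraries, 2 KO and 2 WT, grouped by their titles. The authors deposited whole-number counts per gene in 4 tables, each pairing a KO with a WT library. Bowtie2 2.2.3, TopHat2 2.0.12, HTSeq 0.6.0 and mm9 are named in the submitters' processing notes, with no roles. Since 90.6% of gene positions in the files equal GENCODE M21, coordinates are given on GRCm38. The tables were joined by gene, and 0 of the counts listed in more than 1 table disagreed. A gene is listed where both libraries have a count, or where 1 has at least 5, so unlisted counts were set to 0 and can be at most 4. They amount to at most 0.0193% of a library.

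KO was compared with WT by edgeR 4.0.16 (R 4.3.3; TMM, quasi-likelihood test, filterByExpr at min.count 10), and p-values were adjusted by Benjamini-Hochberg over all 17696 tested genes at a threshold of 0.05 and 2 residual degrees of freedom. SE is the log2 fold change divided by the root of F. DESeq2 1.42.0, limma-voom (limma 3.58.1), other scalings and filters, the replicate number as a block, and fits with 1 library left out were alternatives. Exon length is the union of GENCODE M21 exons inside the files' gene span. Gaps between replicates and likeness used log2(CPM + 0.5). The fits were tested on data simulated with less spread between replicates than these libraries had, so that test does not show how they perform at this spread. Replicates differed by more than sampling noise (chi-square per gene of 20.3 in KO and 30.6 in WT). Intervals (95%, exact) and the limit for 0 counts (3 counts) cover counting error only. The members and lists were chosen with earlier results of these data known. By rule, all members and the 3 most abundant genes of each related list (called genes first) were named, with the 5 genes most like Fos. A gene that the rule chose is not reported here. Egr1 and Ier2 have no promoter window here.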

Additional observations from a re-analysis of the deposited data

How the results depend on the processing

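No member was called under any setting but DESeq2, which called 2 (Atf3 and Junb); Atf3 and Fosl2 were not tested over genes with a mean of at least 5 CPM. The count of called genes was 3 with edgeR, 378 with DESeq2, 28 with limma-voom, 56 with no filter on low counts and 68 over genes with a mean of at least 5 CPM, and ran from 0 (without KO replicate 2) to 42 (without WT replicate 2) with a library left out. The member median of 0.24 ran from -0.08 to 0.74 with a library left out. Over these, log2 fold changes ran from -1.68 to 0.24 for Fosb, -0.20 to 0.87 for Egr1, -0.30 to 0.74 for Ier2, -0.078 to 0.19 for Klf6, -0.46 to 0.12 for Mapk8, -0.016 to 0.10 for Gadd45g, -0.20 to 0.089 for Myc and -0.90 to 0.040 for Fam57b. The cause of these changes was not tested. Fos kept its sign (-0.92 to -0.08), as did Atf3 (2.44 to 3.89) and Junb (0.81 to 1.11). With the replicate number as a block, 4 genes and 0 members were called. The numbers are not known to pair the libraries, since the differences between replicates 1 and 2 in KO and in WT correlated at 0.045 across genes. With 2 libraries a group, only differences well beyond the replicate gaps can be called, and the counts of Atf3, Fosl2 and Jund are low.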
